A study of Mus musculus with 6 samples.

Results

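The genes described here are 38 glycosyltransferases that build sialylated and fucosylated glycans and O-glycans, chosen by gene symbol from the 22564 protein-coding genes of the deposited mRNA table. They were chosen with earlier results of these data known. They were read in lacrimal gland RNA of 6-month-old C57BL/6 mice, as 3 libraries of AQP5+/+ mice and 3 of AQP5-/- mice, whose Aqp5 gene was disrupted with CRISPR-Cas9. The comparison of the genotypes asks which of these genes differ in the gland when the water channel AQP5 is absent from the whole animal. AQP5-/- mice of this line are kept as a model of primary dry eye, and the founder and the exact allele are not given in the sources used here. Neither the number of animals behind a library nor the sex of the sequenced mice is stated, so the spread behind each p-value is that of libraries and may be technical. By the sugar that is transferred, the genes are 13 sialyltransferases, 5 fucosyltransferases, 6 galactosyltransferases, 7 N-acetylglucosamine (GlcNAc) transferases and 7 N-acetylgalactosamine (GalNAc) transferases.

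Glycosyltransferases sit mostly in the Golgi apparatus and move a sugar from an activated nucleotide donor onto a growing glycan. A mucin-type O-glycan starts with a GalNAc on serine or threonine, placed by an enzyme of the Galnt family, and is then extended with galactose and GlcNAc. Sialic acid and fucose usually come last and cap the chain, and the same capping enzymes also act on N-glycans and on glycolipids such as gangliosides. Lacrimal acinar cells secrete heavily glycosylated proteins into tears, and sialylated mucins hold the tear film on the ocular surface.

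The targeted gene separated the genotypes. Aqp5 stood at 153.8, 89.0 and 141.8 FPKM (fragments scaled for transcript length and library depth) in AQP5+/+ replicates 1, 2 and 3 and at 0.378, 0.177 and 0.170 FPKM in AQP5-/- replicates 1, 2 and 3, a log2 fold change of -7.41 (standard error, SE, 0.23; limma adjusted p = 8.62e-06 with Benjamini-Hochberg adjustment over all genes tested). Below, 3 values for a genotype are always in the order of replicates 1, 2 and 3, and log2 fold changes and log2 differences are AQP5-/- over AQP5+/+ on the log2(FPKM + 0.5) scale, which understates the change of low genes. In bulk RNA, fewer cells of a type and less RNA per cell cannot be told apart.

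The libraries held 11244579 to 13723134 estimated fragments each, and 3 features of whole libraries bear on the values below. AQP5+/+ replicate 2 and the 3 AQP5-/- libraries held transcripts of Y-linked genes, while AQP5+/+ replicates 1 and 3 held almost none, as for Uty at 0.139, 16.7 and 0.0603 FPKM against 14.6, 14.96 and 14.4, and for Ddx3y at 0.0952, 11.4 and 0.124 FPKM against 13.7, 11.8 and 10.9. AQP5+/+ replicate 2 did not match the AQP5-/- libraries in every such gene, since Eif2s3y was at 0.0858, 2.04 and 0 FPKM against 17.8, 28.0 and 22.9. Transcripts of salivary glands were high in AQP5-/- replicate 1 and AQP5+/+ replicate 2, where 9 markers without Spt1 summed to 19333 and 1748 FPKM, against 9.72 to 27.7 FPKM in the other libraries. Spt1 itself was listed at 0 in all AQP5+/+ libraries and between 72882 and 88894 FPKM in the AQP5-/- libraries. Skeletal muscle markers summed to 62.7 FPKM in AQP5+/+ replicate 2 and to 0.590 to 2.31 FPKM elsewhere. Of the other marker lists, the acinar markers of the labelled tissue were all above the filter (10 of 10, summed to 23185 to 30476 FPKM), while the 5 adipocyte markers summed to at most 0.528 FPKM. None of the duct, myoepithelial, T cell, fibroblast or endothelial markers passed the 2-fold threshold used below, and at an unadjusted p under 0.05 (limma) there were 1 of 6, 0 of 6, 0 of 5, 1 of 6 and 2 of 6 tested.

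Of the 38 transferases, 31 had a mean of at least 0.5 FPKM and were tested among 11772 genes. Higher in AQP5-/- libraries by 2-fold or more with an unadjusted p under 0.05, the threshold used throughout, were 8 of the 31, against 1.16% of all genes tested, and lower were 0, against 0.883%. These 8 were A4gnt, B4galt6, Fut4, Fut8, B4galnt3, St3gal5, St6galnac2 and B3galt5. Because the genes were chosen with earlier results known, the shares of all genes here and below are description and test nothing. At an unadjusted p under 0.05 alone 9 were higher (3.27% of all genes) and 0 lower (8.12%). At an adjusted p under 0.05 from limma there were 0, where 2 genes of all tested (0.017%) passed, and the lowest adjusted p of a transferase was 0.431. DESeq2 on estimated fragments gave 2 at an adjusted p under 0.05, St8sia4 (DESeq2 adjusted p = 0.034) and B3galt5 (0.048), and edgeR gave 0. Each tool put 3 genes past the threshold, B3galt5, C1galt1 and Gcnt1. For Fut4 and B4galt6 DESeq2 returned no p-value, so these genes could not pass there. Over all genes, DESeq2 gave 149 at an adjusted p under 0.05 and 169 higher past the threshold, and edgeR gave 2 and 144. The count of 8 depended on single libraries, being 2 without AQP5+/+ replicate 1 (Fut8 and B4galnt3), 4 without AQP5+/+ replicate 3, and 5 when either of AQP5-/- replicates 1 and 2 was left out. All genes higher past the threshold numbered 136 in the main fit, and 42, 79, 140 and 84 in these settings. Without AQP5+/+ replicate 2 the count of transferases was 9, and 7 of them had an adjusted p under 0.05 (limma). The whole table moved there too, with 282 genes higher past the threshold and 917 at an adjusted p under 0.05 (limma), of 11772.

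The median log2 fold change of the 31 was 0.34, with 24 above 0 and 7 below, where the median of all genes tested was -0.12 and 33.0% were above 0. Centring each library on its median moved the median of all genes to 0.01 and that of the transferases to 0.48. The genotypes did not overlap for 8 of the 31, all higher in AQP5-/- libraries (3.86% of all genes), and for 0 in the other direction (11.1%). A gene that stands above the filter through AQP5-/- libraries alone could pass it only by differing, so these counts describe the 31 and not all 38. B3galt5 is such a gene, under 0.5 FPKM in every AQP5+/+ library. It is counted both among those past the threshold and among those without overlap.

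**Figure D1:**
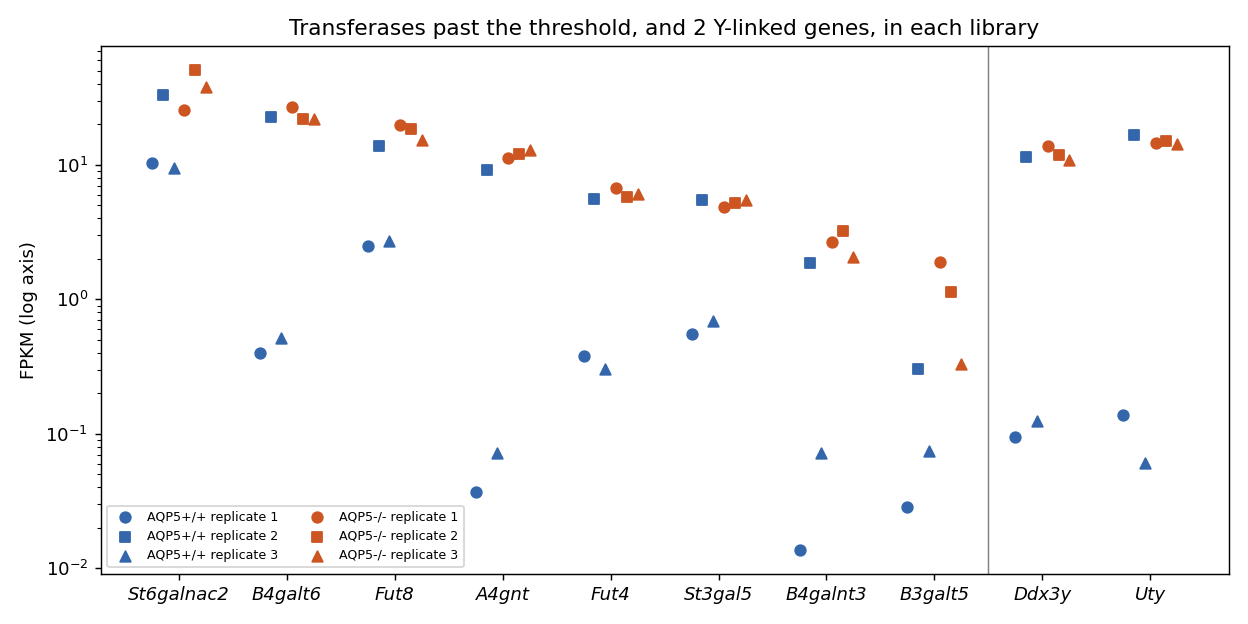
FPKM on a log axis of the 8 transferases past the threshold and of Ddx3y and Uty, with 1 point per library, coloured by genotype and shaped by replicate number. AQP5+/+ replicate 2, the blue square, lies near the AQP5-/- libraries for 7 of the 8 transferases and for both Y-linked genes, while AQP5+/+ replicates 1 and 3 lie far below.

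The 8 higher transferases shared a pattern within the AQP5+/+ group. AQP5+/+ replicate 2 was the highest of its genotype in 8 of 8, as it was in 114 of the 136 genes of the whole table past the same threshold (83.8%), while over all genes tested it was the highest of its genotype in 18.2%. In 3 of the 8, B4galt6, St3gal5 and St6galnac2, it lay within or above the range of the AQP5-/- libraries. It is also the AQP5+/+ library with Y-linked transcripts, so the presence of these transcripts and the genotype cannot be told apart except through this 1 library. A fit with a Y-linked term, added once the values were known, sets AQP5+/+ replicate 2 alone against the 3 AQP5-/- libraries, and Eif2s3y still differed in it (log2 difference 3.18). That replicate is fitted exactly there, so each SE given with this term comes from the other libraries and does not measure its spread. In that fit the median log2 difference of the 31 was 0.28, against 0.02 over all genes tested, and the 8 lay between -0.08 and 0.89. With 1 AQP5+/+ library behind these values, no count of genes passing is drawn from them.

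A4gnt, B4galt6 and Fut4 had the largest log2 fold changes of the set, and B4galt6, Fut4, Fut8, A4gnt, B4galnt3 and St3gal5 were each below 3 FPKM in AQP5+/+ replicates 1 and 3. The promoters of 4 of them are printed because these genes moved together over the libraries and sit at separate loci, so that their start regions can be set side by side. Each sequence is the 250 bases before and 50 bases after a transcript start of the RefSeq annotation of build GRCm38.p6, written 5′ to 3′ on the strand of the gene, and capitals mark a match on either strand to one of 4 motifs. The motifs were the steroid receptor half-site TGTTCT, the STAT site TTCNNNGAA, the GC box GGGCGG and the TATA box TATAAA.
A4gnt, chr9:99612252-99612551, plus strand: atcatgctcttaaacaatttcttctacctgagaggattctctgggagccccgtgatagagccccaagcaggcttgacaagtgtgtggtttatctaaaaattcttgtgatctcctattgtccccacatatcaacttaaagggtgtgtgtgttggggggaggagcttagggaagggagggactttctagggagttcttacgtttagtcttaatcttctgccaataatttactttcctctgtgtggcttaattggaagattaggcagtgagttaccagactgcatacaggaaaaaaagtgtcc
Fut4, chr9:14752073-14752372, minus strand: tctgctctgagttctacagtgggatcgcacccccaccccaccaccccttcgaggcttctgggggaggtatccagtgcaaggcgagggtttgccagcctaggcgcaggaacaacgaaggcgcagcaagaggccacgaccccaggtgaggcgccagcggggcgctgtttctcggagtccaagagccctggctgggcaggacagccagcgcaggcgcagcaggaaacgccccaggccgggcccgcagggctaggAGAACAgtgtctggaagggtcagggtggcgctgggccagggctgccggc
B4galnt3, chr6:120294848-120295147, minus strand: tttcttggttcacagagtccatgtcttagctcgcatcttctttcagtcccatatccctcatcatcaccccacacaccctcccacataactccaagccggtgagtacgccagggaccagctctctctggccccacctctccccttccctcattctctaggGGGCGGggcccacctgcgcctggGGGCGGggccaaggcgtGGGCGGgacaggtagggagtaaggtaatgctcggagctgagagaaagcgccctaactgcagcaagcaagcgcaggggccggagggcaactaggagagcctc
St3gal5, chr6:72097358-72097657, plus strand: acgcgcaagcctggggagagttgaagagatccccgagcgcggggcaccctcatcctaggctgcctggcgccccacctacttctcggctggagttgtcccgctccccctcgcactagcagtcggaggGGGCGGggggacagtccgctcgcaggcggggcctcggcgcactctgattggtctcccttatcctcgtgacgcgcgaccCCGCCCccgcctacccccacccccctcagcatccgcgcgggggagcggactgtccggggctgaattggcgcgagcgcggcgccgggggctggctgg

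The 4 printed windows had little in common by these letters. That of A4gnt, at 43.7% G and C, held none of the 4 motifs, and those of Fut4, B4galnt3 and St3gal5 were at 68.0%, 61.3% and 72.7%. Fut4 held 1 steroid receptor half-site, starting 2 bases into the transcript. B4galnt3 held GC boxes from positions -91, -68 and -51, and St3gal5 from -124 and -46, counted from the transcript start. Fut8 and B4galt6 are not printed, as Fut8 has several windows and windows on chromosome 18, where B4galt6 lies, were left out. The windows of Fut8 held GC boxes from -77 and 4 and half-sites from -89 and 8, so they shared motifs with those of B4galnt3, St3gal5 and Fut4. Over the 25 transferases with a RefSeq promoter, 35 windows in all with several from some genes, a GC box was in 60.0% against 35.7% of all 32851 windows, the half-site in 20% against 19.0%, the STAT site in 5.71% against 8.30% and the TATA box in 2.86% against 13.6%. A match is a string of letters and says nothing of whether a factor binds there.

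All 11 sialyltransferases tested had a log2 fold change above 0 (median 0.44), and 2 passed the threshold. St6galnac2, which adds sialic acid to the GalNAc at the base of an O-glycan (chromosome 11, 116676703 to 116695782, minus strand), was the most abundant sialyltransferase, at 10.4, 33.1 and 9.44 FPKM in AQP5+/+ and 25.7, 50.9 and 38.1 FPKM in AQP5-/- libraries. The groups overlapped, since AQP5+/+ replicate 2 was above AQP5-/- replicate 1. Its log2 fold change was 1.28 (SE 0.47, limma adjusted p = 0.431). With the term for Y-linked transcripts it was 0.15 (SE 0.33).

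St3gal5, the GM3 synthase, makes the first ganglioside by adding sialic acid to lactosylceramide. It stood at 0.552, 5.50 and 0.694 FPKM in AQP5+/+ and 4.90, 5.18 and 5.47 FPKM in AQP5-/- libraries, so AQP5+/+ replicate 2 was the highest library of all. Its log2 fold change was 1.53 (SE 0.60, limma adjusted p = 0.431), and -0.08 (SE 0.22) with the term for Y-linked transcripts. The call was the least stable of the 8 and was lost without any 1 of the libraries except AQP5+/+ replicate 2.

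St8sia4, a polysialyltransferase that extends sialic acid chains on carriers such as NCAM, had narrow groups. It was at 1.12, 1.44 and 1.26 FPKM in AQP5+/+ and 1.96, 2.34 and 2.04 FPKM in AQP5-/- libraries, with every AQP5-/- library above every AQP5+/+ library. The log2 fold change was 0.56 (SE 0.19, limma adjusted p = 0.431) and 0.43 (SE 0.25) with the term for Y-linked transcripts. On estimated fragments it was 0.86 with DESeq2 (DESeq2 adjusted p = 0.034) and 0.85 with edgeR (edgeR adjusted p = 0.384). In the main fit St8sia4 was the 1 transferase with an unadjusted p under 0.05 (limma) whose fold change was under 2.

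St6gal1 makes the sialic acid cap of N-glycans and is strongly expressed in B cells and liver. It was at 1.9002, 4.94 and 2.86 FPKM in AQP5+/+ and 8.41, 10.95 and 2.58 FPKM in AQP5-/- libraries (log2 difference 0.95, SE 0.50, limma adjusted p = 0.456). AQP5-/- replicates 1 and 2 were high and AQP5-/- replicate 3 lay among the AQP5+/+ libraries. The 8 markers of B and plasma cells summed to 230.9, 677.1 and 228.6 FPKM in AQP5+/+ and 1311, 1213 and 320.7 FPKM in AQP5-/- libraries, nearly all of it Igj, the joining chain of secreted immunoglobulins. The same 3 libraries were highest in St6gal1 and in these markers, and the part of such cells in the St6gal1 value was not tested. Of these markers, 6 of 7 tested were above 0 and 2 had an unadjusted p under 0.05, while Ms4a1, which marks B cells, was at 0, 0.854 and 1.36 against 0.274, 0.193 and 0.593 FPKM.

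**Figure D2:**
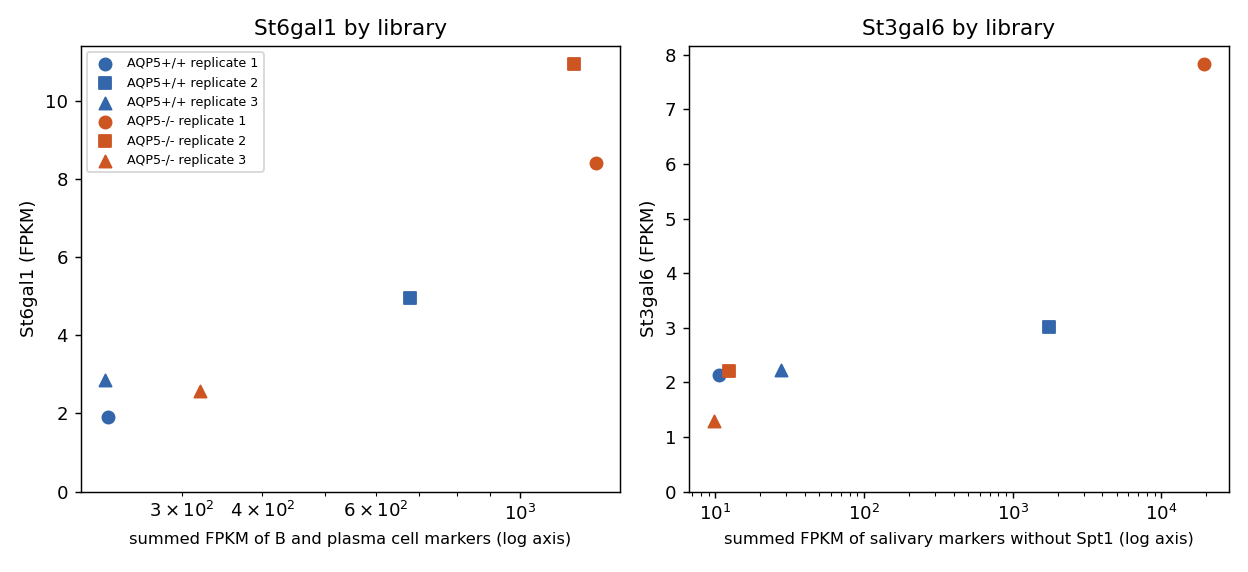
Left, St6gal1 (FPKM) against the summed FPKM of 8 B and plasma cell markers, and right, St3gal6 (FPKM) against the summed FPKM of 9 salivary markers, both x axes on a log scale, with 1 point per library. St6gal1 and its marker sum are both highest in AQP5-/- replicates 1 and 2, and St3gal6 stands at 7.83 FPKM in AQP5-/- replicate 1, the library with the most salivary transcripts.

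Other sialyltransferases had an unadjusted p of 0.05 or more. St6galnac6, which acts on gangliosides, was at 0.798, 0.381 and 0.519 FPKM in AQP5+/+ and 1.73, 1.46 and 0.657 FPKM in AQP5-/- libraries (log2 difference 0.71, SE 0.31, limma adjusted p = 0.432). St6galnac1, which makes the sialyl-Tn antigen of mucins, was at 4.81, 7.97 and 4.70 against 4.81, 9.16 and 7.11 FPKM (log2 difference 0.25, SE 0.28). St3gal1, which caps core 1 O-glycans, was at 1.11, 1.11 and 1.31 against 1.79, 1.44 and 1.37 FPKM, with no overlap but a log2 fold change of 0.28 (SE 0.20). St3gal6 lies over Dcbld2 in the annotation, and its 7.83 FPKM in AQP5-/- replicate 1 compares with 1.29 to 3.01 FPKM in the other libraries.

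Among the fucosyltransferases, Fut4 and Fut8 were higher in AQP5-/- libraries and Fut9 was not. Fut8 adds the core fucose of N-glycans (chromosome 12, 77237430 to 77475998, plus strand) and was the most abundant, at 2.503, 13.8 and 2.71 FPKM in AQP5+/+ and 19.9, 18.5 and 15.4 FPKM in AQP5-/- libraries. All AQP5-/- libraries were above all AQP5+/+ libraries, and their mean was 7.16, 1.30 and 6.61 times AQP5+/+ replicates 1, 2 and 3. The log2 fold change was 1.83 (SE 0.54, limma adjusted p = 0.431), and 0.36 (SE 0.20) with the term for Y-linked transcripts. Fut8 and B4galnt3 kept their call without any 1 library, which none of the other 6 did. Both lost it on estimated fragments, Fut8 at an unadjusted p of 0.063 with edgeR and 0.076 with DESeq2. For B4galnt3 the unadjusted p was 0.137 with edgeR and 0.222 with DESeq2.

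Fut4 makes the Lewis x structure by adding fucose to GlcNAc in the outer chains of glycans. It was at 0.379, 5.59 and 0.301 FPKM in AQP5+/+ and 6.71, 5.76 and 6.10 FPKM in AQP5-/- libraries, and AQP5+/+ replicate 2 lay just under the lowest AQP5-/- library. Its log2 fold change was 2.04 (SE 0.70, limma adjusted p = 0.431), and 0.13 (SE 0.22) with the term for Y-linked transcripts. Fut9, which makes the same structure, was at 3.83, 1.69 and 4.41 against 2.02, 3.24 and 2.60 FPKM (log2 difference -0.22, SE 0.33), lowest in the AQP5+/+ library where Fut4 was highest.

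Of the 6 galactosyltransferases, B4galt6 and B3galt5 passed the threshold. B4galt6 is one of the enzymes that make lactosylceramide, the acceptor of St3gal5. It stood at 0.402, 22.6 and 0.514 FPKM in AQP5+/+ and 27.0, 22.1 and 22.1 FPKM in AQP5-/- libraries, so AQP5+/+ replicate 2 lay inside the AQP5-/- range. The mean of the AQP5-/- libraries was 59.0 times AQP5+/+ replicate 1 and 46.2 times replicate 3, but 1.05 times replicate 2. The log2 fold change was 3.12 (SE 1.11, limma adjusted p = 0.431), and 0.06 (SE 0.20) with the term for Y-linked transcripts.

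B4galt5, the other lactosylceramide synthase, did not follow B4galt6. It was at 0.422, 0.697 and 0.765 FPKM in AQP5+/+ and 0.419, 2.11 and 2.62 FPKM in AQP5-/- libraries (log2 difference 0.81, SE 0.45, limma adjusted p = 0.472), high in AQP5-/- replicates 2 and 3 and lowest of all in replicate 1.

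B3galt5, which builds type 1 chains and globo-series glycolipids (chromosome 16, 96235801 to 96319859, plus strand), was low in every library, at 0.0285, 0.302 and 0.0744 FPKM in AQP5+/+ and 1.91, 1.14 and 0.333 FPKM in AQP5-/- libraries. The groups did not overlap, by a margin of 0.302 against 0.333 FPKM, which rested on 31 and 36 estimated fragments. The log2 fold change was 1.25 (SE 0.41, limma adjusted p = 0.431), and with the term for Y-linked transcripts it was 0.89 (SE 0.58), the highest of the 8 in that fit. The highest value was in AQP5-/- replicate 1, the library with most salivary transcripts. Without that library (log2 fold change 0.90) or without AQP5+/+ replicate 1 (1.13) the gene did not pass the threshold. With both libraries with salivary transcripts left out it passed (1.08). On estimated fragments the log2 fold change of B3galt5 was 2.76 with DESeq2 (DESeq2 adjusted p = 0.048) and 2.76 with edgeR (edgeR adjusted p = 0.384). The part of salivary transcripts in its values was not tested.

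C1galt1, the enzyme that makes core 1, the base of most mucin O-glycans, was at 0.728, 1.15 and 0.763 FPKM in AQP5+/+ and 2.40, 1.40 and 1.16 FPKM in AQP5-/- libraries. The groups did not overlap, with AQP5-/- replicate 1 highest, and the log2 fold change was 0.61 (SE 0.28, limma adjusted p = 0.432). B4galt1, which adds galactose to N-glycans, was far more abundant and differed little, at 58.2, 47.2 and 42.8 FPKM in AQP5+/+ and 43.5, 40.9 and 41.4 FPKM in AQP5-/- libraries (log2 difference -0.22, SE 0.14).

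A4gnt was the only one of the 4 tested GlcNAc transferases past the threshold. Its enzyme caps O-glycans of stomach and duodenal gland mucins with GlcNAc. A4gnt stood at 0.0367, 9.18 and 0.0720 FPKM in AQP5+/+ and 11.2, 12.1 and 12.8 FPKM in AQP5-/- libraries, or 2, 488 and 3 estimated fragments against 561, 520 and 715. It was thus near absence in AQP5+/+ replicates 1 and 3 and about as high in replicate 2 as in AQP5-/- libraries, whose mean was 1.31 times that replicate. The log2 fold change was 3.12 (SE 0.996, limma adjusted p = 0.431), and 0.37 (SE 0.21) with the term for Y-linked transcripts.

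Gcnt1, the enzyme of core 2 branching, was at 0.521, 0.678 and 1.14 FPKM in AQP5+/+ and 3.73, 1.19 and 0.947 FPKM in AQP5-/- libraries (log2 difference 0.79, SE 0.42, limma adjusted p = 0.455), with AQP5-/- replicate 1 standing apart. Mgat3, which adds the bisecting GlcNAc of N-glycans, was at 4.56, 2.90 and 5.17 against 3.15, 3.79 and 2.66 FPKM (log2 difference -0.33, SE 0.24), the lowest log2 fold change of the 31 tested. Its AQP5+/+ replicate 2 again lay with the AQP5-/- libraries, here on the low side.

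Of the 7 GalNAc transferases, only B4galnt3 passed the threshold, and the 5 Galnt enzymes that start mucin-type O-glycans did not. B4galnt3 makes the LacdiNAc unit by joining GalNAc to GlcNAc. It was at 0.0138, 1.87 and 0.0720 FPKM in AQP5+/+ and 2.66, 3.20 and 2.06 FPKM in AQP5-/- libraries, or 1, 135 and 4 estimated fragments against 182, 187 and 156, with no overlap. The log2 fold change was 1.81 (SE 0.55, limma adjusted p = 0.431), and 0.39 (SE 0.32) with the term for Y-linked transcripts. The call was lost with edgeR and with DESeq2 on estimated fragments.

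B4galnt1 and Galnt3 were among the most abundant transferases of the gland and differed little. B4galnt1, the GM2 synthase, was at 28.8, 37.8 and 27.8 FPKM in AQP5+/+ and 28.1, 33.8 and 33.0 FPKM in AQP5-/- libraries (log2 difference 0.02, SE 0.16), and it overlaps Slc26a10 in the annotation. Galnt3 was at 43.4, 50.7 and 46.4 against 60.2, 47.5 and 45.9 FPKM (log2 difference 0.12, SE 0.15). Both differences were smaller than their SE.

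**Figure D3:**
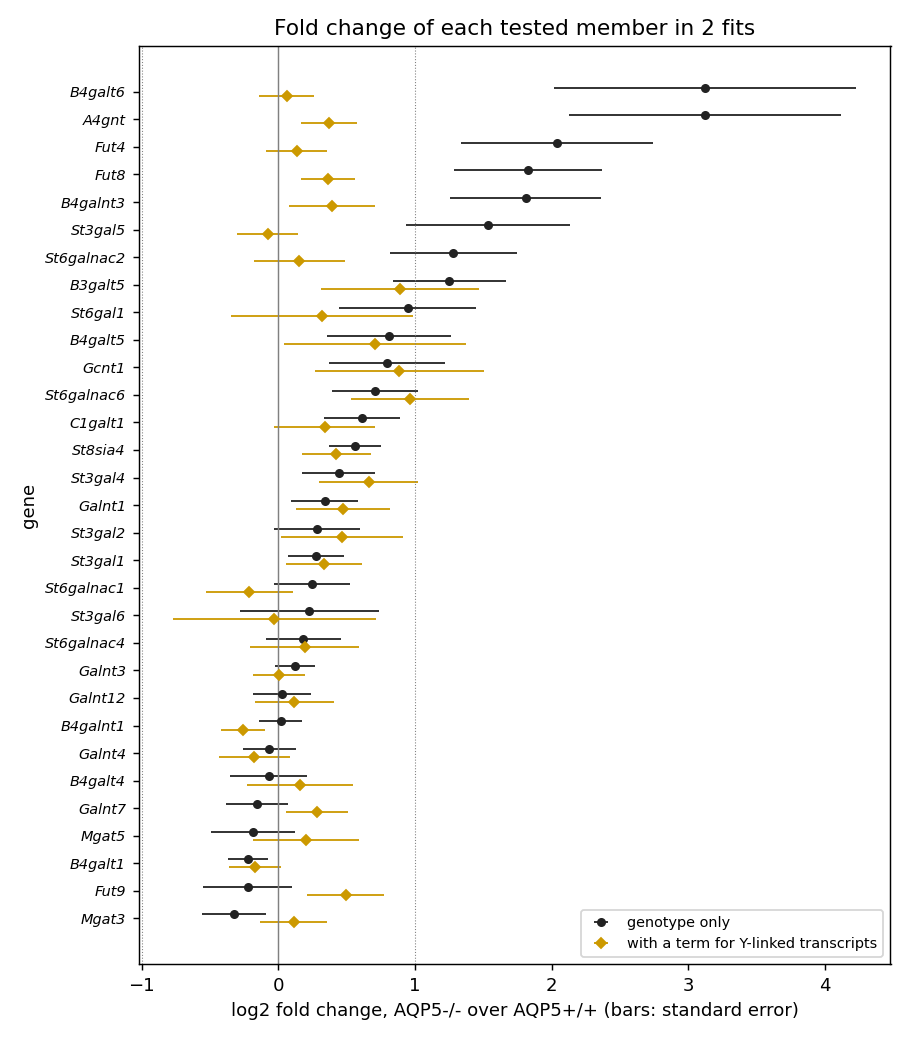
Log2 fold change (AQP5-/- over AQP5+/+) of the 31 tested transferases, with bars of 1 standard error, from the fit with genotype only (black) and from the fit with a term for Y-linked transcripts (gold), and dotted lines at a fold change of 2. The 8 genes above a log2 fold change of 1 in the first fit lie between -0.08 and 0.89 in the second.

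By mean level over the 6 libraries, 7 transferases were at 10 FPKM or more. Galnt3 (49.0 FPKM), B4galt1 (45.7), B4galnt1 (31.5) and Galnt7 (22.1) did not pass the threshold, and St6galnac2 (27.9), B4galt6 (15.8) and Fut8 (12.1) did. At the other end 7 genes fell under the filter, namely St3gal3, St8sia1, Fut1, Fut2, B3gnt3, B3gnt7 and Gcnt3, none above 1.26 FPKM in any library. Fut2, the secretor enzyme of mucosal surfaces, had 1 estimated fragment in all 6 libraries together. Gcnt3, a mucin-type branching enzyme, had 28, 0 and 20 estimated fragments in AQP5+/+ and 0, 0 and 0 in AQP5-/- libraries, so it was found in AQP5+/+ replicates 1 and 3 only, the libraries without Y-linked transcripts.

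The other tested transferases had smaller log2 fold changes in the main fit than those past the threshold, some of them with wide standard errors. The 22 with an unadjusted p of 0.05 or more had log2 fold changes from -0.33 to 0.95 with standard errors from 0.14 to 0.51, and 17 of them a fold change under 1.5 in either direction. Among all 31, AQP5-/- replicate 1 was the highest library for 11 (35.5%), where it was the highest for 6.33% of all genes. AQP5-/- replicate 2 was the highest for 9 (29.0%, against 16.5% of all genes) and replicate 3 for 3 (9.68%, against 11.5%). The 11 of AQP5-/- replicate 1 were Fut4, Fut8, B3galt5, B4galt6, C1galt1, Gcnt1, Galnt1, Galnt3, St3gal1, St3gal6 and St6galnac6. The part of its salivary transcripts in these values was not tested. Macrophage markers were also higher in AQP5-/- libraries, 9 of 9 above 0 and 5 at an unadjusted p under 0.05, with sums of 81.1, 96.2 and 146.1 FPKM against 140.4, 211.0 and 300.4.

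**Figure D4:**
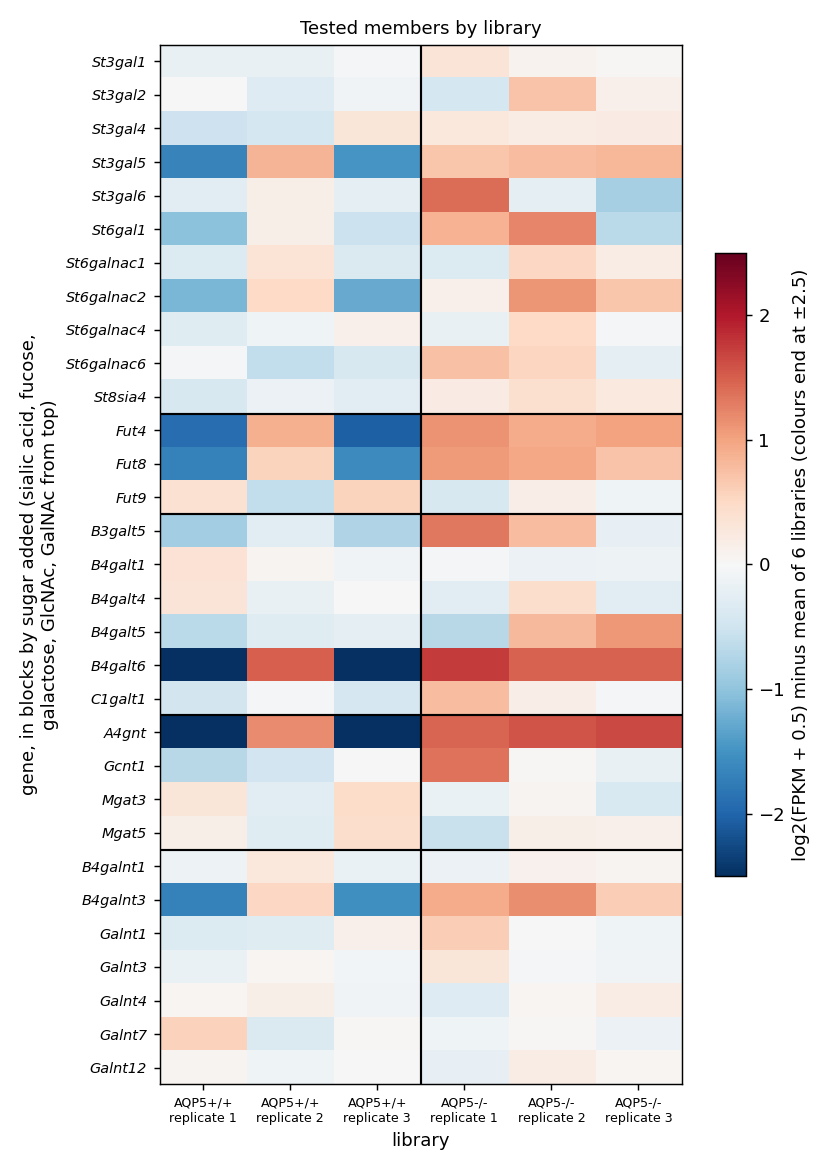
Log2(FPKM + 0.5) of each of the 31 tested transferases minus its mean over the 6 libraries, with genes in rows grouped by the sugar added and libraries in columns. The strong blue cells are in AQP5+/+ replicates 1 and 3, for A4gnt, B4galt6, Fut4, Fut8, B4galnt3, St3gal5 and St6galnac2, and these rows are red in AQP5+/+ replicate 2.

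The pathway annotation in the deposited table divided the genes differently. Over all genes tested 1.16% were higher past the threshold and 0.883% lower, so counts as small as those here say little of a pathway. Of 12 annotated to mucin-type O-glycan biosynthesis, 11 were tested and 0 passed the threshold. C1galt1 and Gcnt1 of this pathway did pass it with edgeR and with DESeq2 on estimated fragments. Of 12 annotated to lacto- and neolacto-series glycolipids, 7 were tested and 2 passed, Fut4 and B3galt5. Of 7 annotated to ganglio-series glycolipids, 6 were tested and 1 passed, St3gal5, and of 5 annotated to N-glycan biosynthesis all were tested and 1 passed, Fut8. The remaining 4 genes past the threshold, A4gnt, B4galnt3, B4galt6 and St6galnac2, were in none of these pathways, and the annotation gave B4galt6 under sphingolipid metabolism. A4gnt and St6galnac2 act on O-glycans, so the annotated mucin-type pathway does not hold all O-glycan enzymes of the set.

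At an unadjusted p under 0.05 (limma), 3.27% of all genes tested were higher and 8.12% lower, and few other genes of the same routes reached it. Of 49 further enzymes of the same transferase families, 21 were tested and 8 were above 0, where 33.0% of all genes were. Past the threshold were 0 of them, against 1.16% of all genes higher and 0.883% lower. The 1 with an unadjusted p under 0.05 was Pofut1, which puts fucose on Notch receptors (log2 difference -0.41, SE 0.17, limma adjusted p = 0.432). Of 24 genes that supply sugar nucleotides, 23 were tested and 0 passed. Gne, the rate-limiting enzyme of sialic acid synthesis, was lower at an unadjusted p under 0.05, at 121.2, 59.4 and 137.9 FPKM in AQP5+/+ and 60.6, 60.0 and 51.1 FPKM in AQP5-/- libraries (log2 difference -0.80, SE 0.30, limma adjusted p = 0.431). AQP5+/+ replicate 2 was below AQP5-/- replicates 1 and 2, and with the term for Y-linked transcripts the log2 fold change was -0.06.

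Of 14 genes that remove or modify glycans 11 were tested, and none had an unadjusted p under 0.05 (limma). Of 13 mucins and mucin-like acceptors, only Dmbt1, a mucin-like secreted scavenger protein, was above the filter, at 232.2, 114.5 and 271.5 FPKM in AQP5+/+ and 85.1, 132.7 and 76.2 FPKM in AQP5-/- libraries. Dmbt1 was past the threshold on the lower side (log2 difference -1.02, SE 0.35, limma adjusted p = 0.431), with AQP5+/+ replicate 2 again inside the AQP5-/- range and a log2 fold change of -0.27 with the term for Y-linked transcripts.

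Circular RNAs, closed loops read from back-splice junctions, give a second readout of the same loci, but few were found. Of 2541 circRNAs in the table, 5 came from 3 of the transferases, 3 from Fut8, 1 from B4galt6 and 1 from St3gal5, with 11 junction reads in all, 5 in AQP5+/+ and 6 in AQP5-/- libraries. None had reads in 3 or more libraries, so none was compared, and for 35 transferases no circRNA was listed. At this depth no difference in the circRNAs of these genes was detectable. The circRNA of St3gal5, mmu_circ_0001484, had 2, 0 and 0 reads in AQP5+/+ and none in AQP5-/- libraries.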

How the data were processed

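The authors' processing notes name cutadapt 1.9.3, STAR 2.5.1b, HISAT2 2.0.4, Cufflinks, Cuffdiff 2.2.1 and edgeR 3.16.5 and the mm10 build, without their order. For the library the labels name NEBNext rRNA depletion and directional kits, and the paper the Ribo-Zero and TruSeq kits. No source used here says whether counting used strand. The authors deposited FPKM values and estimated counts for each protein-coding gene. These deposited counts carry 1 scale factor for each library, and division by that step, the median of scaled counts near 1, gave fragments that were whole within 0.02 for 89.7% to 90.7% of values. They were rounded for the count tests. The deposited junction read counts of circRNAs were used as they stand, and the log2 values that the authors deposited with them were not used, nor were columns of fold changes and p-values. Some entries of the mRNA table were not analysed here.

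With R 4.3.3, FPKM were compared with limma 3.58.1 (eBayes with a variance trend), after log2(FPKM + 0.5), for all 11772 genes with a mean of at least 0.5 FPKM, with Benjamini-Hochberg adjustment over all of them, genotype as the only term and 3 libraries per genotype. The threshold, a fold change of at least 2 with an unadjusted p under 0.05, follows the study. CircRNAs needed reads in at least 3 libraries for edgeR's quasi-likelihood test. Alternatives changed the pseudocount, filter, scaling, variance model and weights, the tool (edgeR 4.0.16 or DESeq2 1.42.0 on estimated fragments), the replicate block and each library left out. A term for Y-linked transcripts (both Ddx3y and Uty above 1 FPKM) and leaving out both libraries with salivary transcripts were added after the data were seen. The fits were tested on simulated data. The genes and lists, and the 11 marker and 4 pathway lists, were chosen with earlier results of these data known.

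All libraries are given for each transferase with an unadjusted p under 0.05, a fold change of at least 1.5 or no overlap between genotypes, and for the 2 most abundant of each subgroup. St3gal6, Fut9 and Gcnt3 were added after their values were seen. Of other pathway genes those with an unadjusted p under 0.05 are named. GlcNAc transferases were separated here as a subgroup of their own. Promoters came from RefSeq, matched by symbol.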

Additional observations from a re-analysis of the deposited data

How the results depend on the processing

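The number of transferases past the threshold was 8, and 3 with edgeR and 3 with DESeq2 on estimated fragments. In both cases these were B3galt5, C1galt1 and Gcnt1, and DESeq2 returned no p-value for Fut4 and B4galt6. The number was 2 to 9 with each library left out in turn. Leaving out AQP5+/+ replicates 1, 2 and 3 gave 2, 9 and 4, and leaving out AQP5-/- replicates 1, 2 and 3 gave 5, 5 and 8. Over all genes tested, those higher past the threshold were 136 in the main fit and 42 to 282 with each library left out. The number of transferases at an unadjusted p under 0.05 (limma) was 3 to 13 with each library left out, 13 (11 higher and 2 lower) without AQP5+/+ replicate 2. In that last setting 703 of all genes were higher and 2658 lower at the same level. With the Y-linked term, added once the values were known, the median log2 fold change of the 31 was 0.28. At an adjusted p under 0.05 (limma) the number was 7 with sample weights, 2 with DESeq2, 0 to 7 with each library left out (7 without AQP5+/+ replicate 2) and 7 without both libraries with salivary transcripts, also added then. Over all genes tested it was 516 with sample weights, 149 with DESeq2, 917 without AQP5+/+ replicate 2 and 488 without both salivary libraries, against 2 in the main fit. The median log2 fold change stayed between 0.26 and 0.74 over all settings.

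With the term for Y-linked transcripts the sign turned for St3gal5 (-0.080), St6galnac1 (-0.21), St3gal6 (-0.03), B4galnt1 (-0.26), Mgat3 (0.11), Fut9 (0.49), Galnt7 (0.28), Mgat5 (0.20) and B4galt4 (0.16). It also turned for B4galnt1 with libraries left out (-0.065 to 0.15) and for Galnt3 with libraries left out (-0.0017 to 0.19). The values turned by the Y-linked term set AQP5+/+ replicate 2 alone against the AQP5-/- libraries, so no test result is drawn from them. Those turned with libraries left out had an unadjusted p above 0.05 (limma). The cause was not tested. Replicate numbers did not pair the libraries, since same-numbered libraries correlated at -0.139, -0.184 and -0.150 in their deviations. With the replicate block 8 transferases passed the threshold, 9 had an unadjusted p under 0.05 and 0 an adjusted one. The circRNA count was 0 in every setting. With 3 libraries a side and 2 or 3 fragments for A4gnt in 2 libraries, fold changes of such genes depend on the pseudocount.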
